A study of Homo sapiens with 12 samples.

Results

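The 9 genes HLA-B, HLA-C, HLA-E, B2M, TAP1, TAP2, TAPBP, NLRC5 and ERAP1 serve the presentation of peptides by MHC class I molecules. They were taken by exact name, and all 9 were present among the 23621 genes of each deposited expression table. RNA was collected from KURAMOCHI and COV362, human ovarian cancer cell lines labelled as untransduced controls, grown in RPMI and DMEM respectively, each with fetal bovine serum. Each line was given DMSO, the vehicle, or THZ1, a covalent inhibitor of the kinases CDK7, CDK12 and CDK13, at 50 nM or 250 nM for 6 hr. There were 2 biological replicates of each of the 3 groups per line and 12 libraries in all. Levels are FPKM (fragments scaled to transcript length and library total) that the authors rescaled to ERCC spike-in RNAs added to samples matched for cell number. Read counts were not part of the tables used, so the depth of the libraries is unknown.

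MHC class I molecules display peptides from inside the cell to cytotoxic T cells. Proteasomes cut proteins into peptides, the TAP1 and TAP2 transporter carries these into the endoplasmic reticulum, ERAP1 trims them, and TAPBP (tapasin) holds empty class I molecules at the transporter until a peptide binds. The class I molecule itself pairs a heavy chain with B2M (beta-2-microglobulin), and NLRC5 together with interferon-induced factors drives transcription of the genes for most of these proteins; loss of class I from the surface is a known route by which tumors, ovarian carcinomas among them, evade T cells.

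Markers of the labelled cell type were present in both lines. PAX8, a transcription factor of serous ovarian carcinoma, had a mean DMSO level of 136 FPKM in KURAMOCHI and 124 FPKM in COV362, and the keratin KRT8 had 2432 and 1133 FPKM. With the DMSO libraries of both lines averaged, the keratins KRT8, KRT18 and KRT7 were the 3 most abundant markers of the list, although KRT7 was at 4.61 FPKM in KURAMOCHI and 1355 FPKM in COV362. WT1 was at 56.8 FPKM in KURAMOCHI and 0.653 FPKM in COV362, while MUC16 and CDH1 were below 1 FPKM in KURAMOCHI. Of 12 leukocyte markers, 10 in KURAMOCHI and 11 in COV362 did not exceed 1 FPKM in any library. CD3E, CD3D, CD2, MS4A1 and FCGR3A sat in every library of both lines at a floor value shared by 5276 genes in KURAMOCHI and 4896 in COV362, and the most abundant leukocyte marker, CD68, had 2.31 and 4.12 FPKM in DMSO. The 12 markers summed to 5.55 and 4.67 FPKM in the DMSO libraries of KURAMOCHI, 4.58 and 4.59 FPKM at 50 nM, and 3.68 and 3.5 FPKM at 250 nM. In COV362 the sums were 5.81 and 6.35, then 3.52 and 4.25, then 2.97 and 3.03 FPKM.

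In the GENCODE annotation on GRCh37, 6 of the 9 genes lie on chromosome 6, in the MHC. HLA-E (chr6:30457286-30461971, plus strand), HLA-C (chr6:31236526-31239907, minus strand) and HLA-B (chr6:31321649-31334844, minus strand) encode heavy chains. TAP2 (chr6:32789610-32806516), TAP1 (chr6:32812986-32821593) and TAPBP (chr6:33267471-33282061) follow on the minus strand. B2M lies at chr15:45003556-45011049 and NLRC5 at chr16:57023397-57117443, both on the plus strand, and ERAP1 at chr5:96096514-96143803 on the minus strand. The heavy chain genes belong to a family of near-identical copies, and how shared reads were assigned is not given in the sources used here, so their levels are uncertain. Of all 75-base stretches of the canonical transcript, 0% of those of HLA-B, 1.98% of those of HLA-C and 2.3% of those of HLA-E also occurred in transcripts of other annotated genes; alleles of the cell lines were not part of this comparison. For TAP2 the share was 35%, nearly all with ENSG00000250264, an annotated coding model that spans TAP2 on the same strand. PSMB9 covers TAP1 and CAST shares 18786 bases with ERAP1, both on the opposite strand. The strand setting used for counting is not given in the sources used here, so the levels of TAP1 and ERAP1 are uncertain to the extent that reads fell where the opposite strand is also transcribed.

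RefSeq promoter entries of GRCh38.p14 were found for 7 of the 9 genes; HLA-E and NLRC5 had none. The 250 bases before each start were searched on both strands for GAAANNGAA, the core of the interferon response element bound by IRF factors, for CCAAT, the NF-Y motif, and for GGGANNNCC, of the kind bound by NF-kB. The first was found for B2M, TAP1, TAP2 and TAPBP and in 6.88% of 35116 promoter entries, the second for HLA-B, HLA-C, B2M, TAP1 and ERAP1 and in 32% of entries, and the third for HLA-B, TAP1, TAPBP and ERAP1 and in 20.1% of entries. Genes were counted over all their entries, 9 for the 7 genes, while the shares are per entry. The figures are therefore not like for like. The NF-kB type matches of TAP1 and ERAP1, and the CCAAT match of ERAP1, came only from their second entries. A form of the interferon element with the other spacing, GAANNGAAA, was added after the sequences were seen, and was found for HLA-B, HLA-C, TAP2 and ERAP1 and in 6.56% of entries. It can overlap GAAANNGAA. Stretches of 60 bases that end with the interferon-type match are shown for HLA-B and HLA-C, which moved nearly alike, for B2M, whose protein pairs with theirs, and for TAP1, which differed from TAP2. They run in the direction of the gene, with capitals for matches to any of these motifs:
HLA-B (chr6:31357326-31357385, minus strand): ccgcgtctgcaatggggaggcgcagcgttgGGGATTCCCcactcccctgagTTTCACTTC
HLA-C (chr6:31272235-31272294, minus strand): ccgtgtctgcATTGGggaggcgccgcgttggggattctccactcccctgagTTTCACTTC
B2M (chr15:44711328-44711387, plus strand): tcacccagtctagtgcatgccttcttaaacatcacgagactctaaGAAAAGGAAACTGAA
TAP1 (chr6:32853823-32853882, minus strand): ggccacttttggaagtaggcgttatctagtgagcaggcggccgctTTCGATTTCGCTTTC
In HLA-B the first run of capitals is of the NF-kB kind and the second the interferon type on the reverse strand. HLA-C has a reversed CCAAT followed by the same interferon-type letters. B2M and TAP1 each hold 2 overlapping matches to GAAANNGAA, reversed in TAP1. A match describes the letters, and binding was not measured.

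Among the 9 genes, the DMSO level was highest for B2M, at 870.1 and 773 FPKM in the KURAMOCHI libraries and at 1418 and 1622 FPKM in COV362. HLA-B came next in both lines, and ERAP1 and NLRC5 were the lowest. The order in between differed. In KURAMOCHI it was TAPBP, HLA-C, TAP2, HLA-E and TAP1, and in COV362 it was HLA-C, HLA-E, TAPBP, TAP2 and TAP1, and in neither line did the DMSO libraries of neighbors in this order overlap. Genes whose FPKM was over 1 in any of the 12 libraries were taken as active; all 9 passed, but NLRC5 passed it through COV362 alone.

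On the spike-in scale most active genes were at lower levels with THZ1 in both lines. Of the 9 class I genes, 5 had negative fold changes in KURAMOCHI at 50 nM, where those of HLA-B, HLA-C, B2M and ERAP1 were positive. All 9 were negative at 250 nM there and at both doses in COV362. Under median-of-ratios rescaling the direction at 250 nM flipped for all but TAP1 in KURAMOCHI and all but TAP1 and NLRC5 in COV362. Called genes are those with a Benjamini-Hochberg adjusted p under 0.001 over 14251 active genes and a log2 fold change beyond 0.5 in limma, with fold changes taken on the log2(FPKM + 1) scale, which understates changes of low genes. In KURAMOCHI at 50 nM, 0 of 9 genes were called lower beside 11.3% of active genes, and at 250 nM 4 of 9 beside 68.6%, namely HLA-E, TAP1, TAP2 and TAPBP. In COV362 at 50 nM, 5 of 9 were called lower beside 70.5%, namely these 4 and NLRC5, and at 250 nM 9 of 9 beside 84%. That 250 nM count was 7 with the replicate number as a block, beside 11202 active genes. It was also 7 with no minimum FPKM, beside 11287 of all 23621 genes, in both cases without HLA-B and B2M. 0 of the 9 were called higher at either dose by limma. At an unadjusted p under 0.05, limma put 4 of the 9 lower and 0 higher in KURAMOCHI at 50 nM, 8 lower and 0 higher at 250 nM, and 9 lower and 0 higher at each dose in COV362. By the same threshold 8692 and 12770 of the 14251 active genes were lower in KURAMOCHI at 50 and 250 nM, and 13038 and 13219 in COV362, so such counts of the 9 genes are not particular to them. The median log2 fold change of the 9 genes in KURAMOCHI was −0.15 at 50 nM and −0.44 at 250 nM, beside −0.40 and −1.11 over active genes, and 8 of the 9 lay above the median of active genes at each dose. In COV362 it was −0.69 and −1.13, beside −0.85 and −1.31, with 6 and 7 of the 9 above. These positions depended on the minimum FPKM. Over all 23621 genes the medians were −0.13 and −0.50 in KURAMOCHI, with 4 and 5 of the 9 above. In COV362 they were −0.50 and −0.70, with 3 and 2 above. Less RNA per cell and fewer cells cannot be told apart in bulk samples, apart from the matching by cell number. An exact permutation test of 2 against 2 libraries cannot go below p = 0.33. Single libraries weighed on these counts. The active genes called lower in KURAMOCHI at 50 nM numbered 55 and 131 without replicates 1 and 2 of DMSO, 12 and 7 without those of 50 nM, and 6 without either of 250 nM. With no minimum FPKM, 3 of all 23621 genes were called lower there. At 250 nM in KURAMOCHI they numbered 6085 and 6319 without replicates 1 and 2 of that dose, with 2 of the 9 genes called in each case. In COV362 without replicate 2 of DMSO they numbered 4314 at 50 nM, with 3 of the 9 genes called, and 10451 at 250 nM, with 5 of the 9 called.

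The direction of these changes holds on the spike-in scale. When libraries were rescaled by their median of ratios over active genes, which removes a shift shared by most genes, the median log2 fold change at 250 nM moved from −1.11 to −0.0009 in KURAMOCHI and from −1.31 to 0.011 in COV362, and at 50 nM from −0.40 to 0.025 and from −0.85 to 0.002. On that scale limma called 0 of 9 genes lower in each of these comparisons; at an unadjusted p under 0.05 it put 1 lower at 50 nM and 0 at 250 nM in KURAMOCHI, and 2 and 1 in COV362, beside 7 and 7 higher in KURAMOCHI and 6 and 7 higher in COV362. At 250 nM HLA-B, HLA-C, B2M, TAP2 and ERAP1 in KURAMOCHI and HLA-B, HLA-C and B2M in COV362 were called higher, as was HLA-B at 50 nM in KURAMOCHI. Calls over active genes at 250 nM were 9774 lower and 7 higher on the spike-in scale and 2708 lower and 1577 higher after rescaling in KURAMOCHI, and 11971 lower and 15 higher against 2694 lower and 1221 higher in COV362. At 50 nM they went from 1607 lower and 12 higher to 388 and 74 in KURAMOCHI and from 10042 and 11 to 110 and 20 in COV362. The 9 genes together made up 0.0987% and 0.0882% of all gene FPKM in the DMSO libraries of KURAMOCHI, 0.119% and 0.118% at 50 nM, and 0.143% and 0.149% at 250 nM. In COV362 the shares were 0.164% and 0.162%, then 0.172% and 0.168%, then 0.193% and 0.194%. In each line the shares at 250 nM lay above both DMSO shares. Most of each share was B2M, so the sum does not describe each of the 9 genes. B2M alone made up 0.0705% and 0.0630% in the DMSO libraries of KURAMOCHI and 0.112% and 0.114% at 250 nM. In COV362 it made up 0.0963% and 0.0962% in DMSO and 0.118% and 0.111% at 250 nM.

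**Figure D1:**
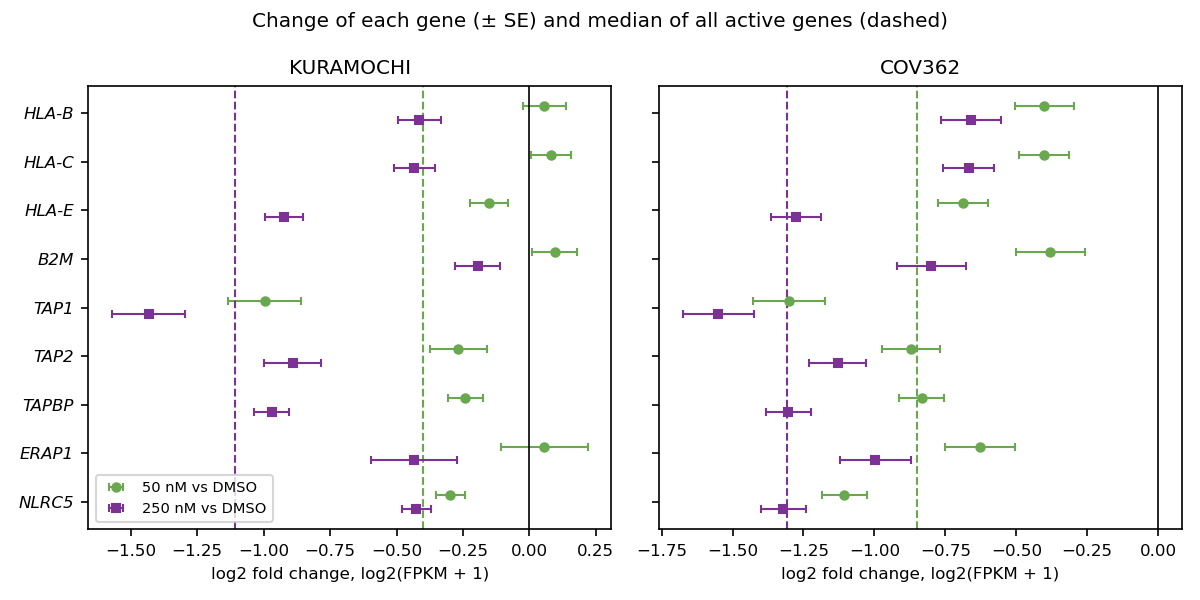
Log2 fold change (x axis) of each of the 9 genes (y axis) at 50 nM (circles) and 250 nM (squares) THZ1 against DMSO, with bars of 1 SE from limma and dashed lines for the median of all active genes at the same dose, on the spike-in scale. In KURAMOCHI 8 of the 9 genes lie to the right of the median at each dose, with TAP1 to its left, and after median-of-ratios rescaling the medians fall near 0 and most of the 9 genes lie above 0.

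HLA-B and HLA-C, classical heavy chains that carry the peptide, moved nearly alike. HLA-B was at 128 and 111 FPKM in the DMSO libraries of KURAMOCHI, 128 and 121 FPKM at 50 nM, and 89.0 and 89.6 FPKM at 250 nM. In COV362 its levels were 533 and 595 FPKM in DMSO, 428 and 425 FPKM at 50 nM, and 331 and 384 FPKM at 250 nM. The DMSO and 50 nM libraries overlapped in KURAMOCHI, where both 250 nM libraries lay below, and in COV362 both doses lay below DMSO. HLA-C had 56.3 and 50.2 FPKM in DMSO, 55.6 and 56.9 FPKM at 50 nM, and 38.4 and 39.9 FPKM at 250 nM in KURAMOCHI. In COV362 it went from 209.9 and 233 FPKM in DMSO through 168 and 166 FPKM to 133 and 144 FPKM. HLA-C thus repeated the order seen for HLA-B, with an overlap of DMSO and 50 nM in KURAMOCHI only. At 250 nM the log2 fold change in KURAMOCHI was −0.41 ± 0.081 (SE, adjusted p = 0.00292) for HLA-B and −0.43 ± 0.076 (adjusted p = 0.00182) for HLA-C, neither called. In COV362 both fell at 250 nM, by 0.66 (SE 0.10, adjusted p = 0.000544) and 0.67 (SE 0.089, adjusted p = 0.000193) on the log2 scale, and the HLA-B call was lost when no minimum FPKM was set (adjusted p = 0.00152). Of the active genes of KURAMOCHI at 250 nM, 85.5% had a lower fold change than HLA-B and 84.9% a lower one than HLA-C. The ratio of HLA-B to HLA-C stayed between 2.12 and 2.32 in KURAMOCHI and between 2.49 and 2.66 in COV362 over all 6 libraries of a line.

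HLA-E, the non-classical heavy chain read by NKG2A receptors of NK cells, was lowered further. Its levels in KURAMOCHI were 30.0 and 28.7 FPKM in DMSO, 26.3 and 26.1 FPKM at 50 nM, and 15.2 and 14.8 FPKM at 250 nM. In COV362 they were 92.0 and 98.7 FPKM, then 57.3 and 60.2 FPKM, then 36.8 and 40.8 FPKM. The 3 groups did not overlap in either line. HLA-E fell at 250 nM to 51.1% of its DMSO mean in KURAMOCHI (log2 fold change −0.92 ± 0.072, SE, adjusted p = 5.03e-05) and to 40.7% in COV362 (−1.28 ± 0.089, adjusted p = 6.35e-06), close to the median of active genes, since 59.9% and 51.5% of them had a lower fold change.

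B2M, the light chain shared by all class I molecules, was the member with the smallest log2 fold change at 250 nM in KURAMOCHI. It was at 870.1 and 773 FPKM in DMSO, 902.5 and 851 FPKM at 50 nM, and 741 and 693 FPKM at 250 nM. In COV362 its levels were 1418 and 1622 FPKM in DMSO, 1069 and 1268 FPKM at 50 nM, and 894 and 848 FPKM at 250 nM. In KURAMOCHI the 50 nM libraries overlapped DMSO and the 250 nM libraries lay just below it, and in COV362 the 3 groups did not overlap. The 250 nM mean was 87.3% of DMSO in KURAMOCHI (log2 fold change −0.19 ± 0.084, SE, adjusted p = 0.0673, not called), with 92.2% of active genes at a lower fold change. In COV362 B2M fell to 57.3% (−0.80 ± 0.12, adjusted p = 0.000428), with 77.9% of active genes at a lower fold change, and this call was lost without a minimum FPKM (adjusted p = 0.00199). B2M divided by the sum of HLA-B, HLA-C and HLA-E was 4.06 and 4.07 in the DMSO libraries of KURAMOCHI, 4.31 and 4.18 at 50 nM, and 5.20 and 4.80 at 250 nM. In COV362 it was 1.70 and 1.75, then 1.64 and 1.95, then 1.79 and 1.49. Treated libraries exceeded both DMSO libraries in KURAMOCHI and straddled them in COV362; this ratio was not tested.

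Among the other active genes with a mean DMSO FPKM above 1 in both lines (11874 candidates), SEC61A2, FKBP1A and C22orf32 had the 4 log2 fold changes against DMSO nearest to those of B2M, at Euclidean distances of 0.107, 0.122 and 0.127. For NLRC5 they were TMEM106A, MAMDC2 and PLA2G4A, at 0.141, 0.153 and 0.167. NLRC5 itself had a mean DMSO level of 0.841 FPKM in KURAMOCHI, below the level asked of the candidates. The log2(FPKM + 1) scale understates its fold changes there. The 4 comparisons cover both lines and both doses, and those of a line share their DMSO libraries.

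**Figure D2:**
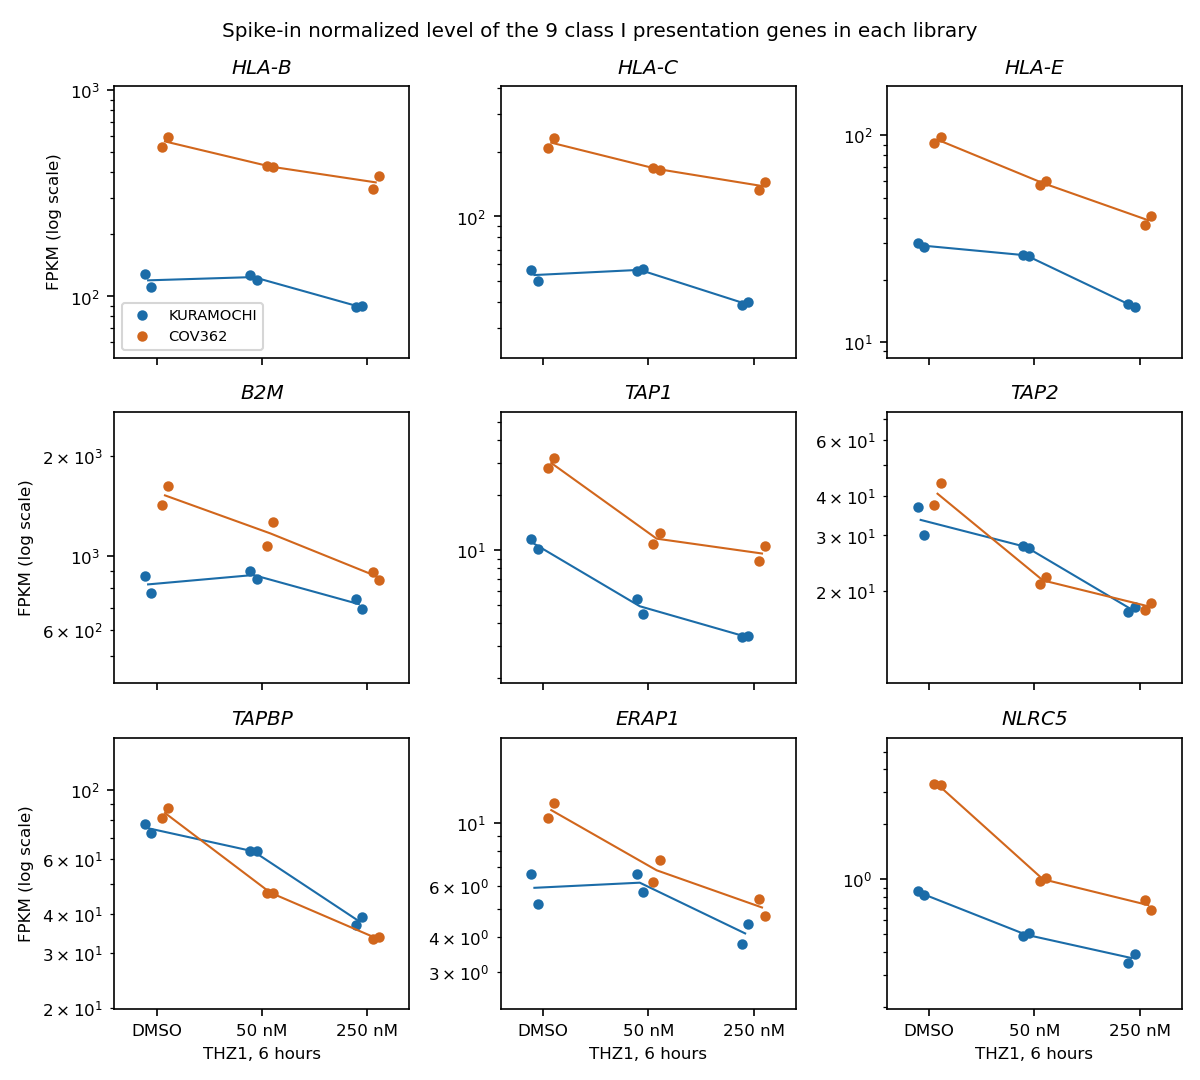
FPKM on a log axis (y) of the 9 genes in each library of KURAMOCHI (blue) and COV362 (orange) by THZ1 dose (x), with 1 point per library and lines through the means of 2 replicates. The tables of the lines were normalized separately, so heights are not compared between colors; TAP1 drops mainly between DMSO and 50 nM in both lines, while in KURAMOCHI the DMSO and 50 nM points of HLA-B, HLA-C, B2M and ERAP1 overlap.

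The subunits of the peptide transporter moved unequally. TAP1 was at 11.5 and 10.1 FPKM in the DMSO libraries of KURAMOCHI, 5.39 and 4.50 FPKM at 50 nM, and 3.36 and 3.40 FPKM at 250 nM. In COV362 it was at 28.1 and 31.9 FPKM, then 10.8 and 12.4 FPKM, then 8.71 and 10.5 FPKM. The treated libraries lay far below DMSO at both doses, and in COV362 the step from 50 to 250 nM was small beside the first. TAP2 was at 37.0 and 30.2 FPKM in DMSO, 27.8 and 27.4 FPKM at 50 nM, and 17.2 and 17.9 FPKM at 250 nM in KURAMOCHI. In COV362 it was at 37.3 and 43.9 FPKM, then 21.1 and 22.2 FPKM, then 17.5 and 18.4 FPKM. None of the 3 groups overlapped for TAP2 in either line.

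At 250 nM TAP1 fell to 31.2% of its DMSO mean in KURAMOCHI (log2 fold change −1.43 ± 0.14, SE, adjusted p = 0.000118) and to 32.0% in COV362 (−1.55 ± 0.13, adjusted p = 1.3e-05). It was the only one of the 9 genes below the median of active genes at 250 nM in KURAMOCHI, where 35.1% of active genes had a lower fold change. At 50 nM its mean was already 45.6% of DMSO in KURAMOCHI, where it was not called (−0.99 ± 0.14, adjusted p = 0.00207) and 14% of active genes had a lower fold change, and 38.6% in COV362, where it fell (−1.30 ± 0.13, adjusted p = 7.09e-05). After median-of-ratios rescaling TAP1 kept a negative fold change against DMSO, of −0.49 and −0.19 at 50 and 250 nM in KURAMOCHI and of −0.32 and −0.03 in COV362, with no call. TAP2 fell to 52.3% in KURAMOCHI (−0.89 ± 0.11, adjusted p = 0.000317) and 44.2% in COV362 (−1.13 ± 0.10, adjusted p = 2.22e-05) at 250 nM, and its fold changes turned positive after rescaling. The TAP1 and TAP2 calls in KURAMOCHI at 250 nM were lost without replicate 1 of that dose (adjusted p = 0.0015 and 0.00308) and without replicate 2 (0.00142 and 0.00243), which left 2 of 9 genes called. Median-of-ratios rescaling, with 1 factor per library, leaves TAP1 divided by TAP2 unchanged. The spike-in normalization may have acted differently on genes of different levels, so the ratio is not free of it. The ratio was 0.312 and 0.336 in DMSO, 0.194 and 0.164 at 50 nM, and 0.195 and 0.19 at 250 nM in KURAMOCHI. In COV362 the ratio was 0.752 and 0.727, then 0.51 and 0.557, then 0.497 and 0.57. All treated libraries lay below both DMSO libraries in each line, and the ratio was not tested.

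TAPBP, which bridges the transporter and the class I molecule, had 77.7 and 72.8 FPKM in DMSO, 63.4 in both libraries at 50 nM, and 36.8 and 39.0 FPKM at 250 nM in KURAMOCHI. In COV362 it had 80.9 and 87.4 FPKM, then 46.7 and 46.8 FPKM, then 33.3 and 33.7 FPKM. Replicates were close and the groups did not overlap. At 250 nM TAPBP fell to 50.4% of DMSO in KURAMOCHI (log2 fold change −0.97 ± 0.066, SE, adjusted p = 3.09e-05) and 39.8% in COV362 (−1.30 ± 0.079, adjusted p = 3.37e-06), and after rescaling both values were positive, at 0.46 and 0.28. ERAP1, the aminopeptidase that trims peptides, had 6.65 and 5.20 FPKM in DMSO, 6.63 and 5.72 FPKM at 50 nM, and 3.77 and 4.43 FPKM at 250 nM in KURAMOCHI. In COV362 it had 10.4 and 11.7 FPKM, then 6.22 and 7.42 FPKM, then 5.39 and 4.72 FPKM. The 50 nM libraries overlapped DMSO in KURAMOCHI only. ERAP1 fell at 250 nM in COV362, to 45.6% (−0.996 ± 0.12, adjusted p = 0.000132), and was at 69.3% in KURAMOCHI (−0.44 ± 0.16, adjusted p = 0.0418, not called).

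NLRC5, the transactivator that binds class I promoters as part of the enhanceosome, was the least abundant of the 9. It was at 0.865 and 0.817 FPKM in DMSO, 0.49 and 0.506 FPKM at 50 nM, and 0.35 and 0.393 FPKM at 250 nM in KURAMOCHI. In COV362 its levels were 3.33 and 3.29 FPKM, then 0.983 and 1.02 FPKM, then 0.767 and 0.679 FPKM. No groups overlapped in either line, and in COV362 most of the difference was present at 50 nM. NLRC5 fell in COV362 to 30.3% of DMSO at 50 nM (log2 fold change −1.11 ± 0.079, SE, adjusted p = 2.8e-05) and to 21.9% at 250 nM (−1.32 ± 0.079, adjusted p = 3.21e-06), the smallest remaining share of the 9 genes at each dose in that line. In KURAMOCHI, where all 6 libraries were below 1 FPKM, its 250 nM mean was 44.2% of DMSO, and the log2 fold change, −0.42 ± 0.054 (adjusted p = 0.000392), did not reach the fold threshold, and with a pseudocount of 0.1 it was −0.998 (adjusted p = 0.000923) and called. After median-of-ratios rescaling NLRC5 was at −0.40 and −0.34 at 50 and 250 nM in COV362, and at −0.06 and 0.10 in KURAMOCHI.

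Several calls in COV362 were lost when 1 library was left out. Without replicate 2 of DMSO, 5 of 9 genes were called lower at 250 nM, with adjusted p = 0.00263 for HLA-B, 0.00112 for HLA-C, 0.00167 for B2M and 0.0018 for ERAP1 in limma, and 3 of 9 at 50 nM, with adjusted p = 0.00245 for HLA-E and 0.00139 for TAP2. Active genes called lower in COV362 then numbered 4314 at 50 nM and 10451 at 250 nM. The HLA-E call at 50 nM was also lost without replicate 1 of DMSO (adjusted p = 0.00116) or of 50 nM (0.00137), while ERAP1 was called at 50 nM without replicate 2 of that dose (0.000878). At 250 nM, HLA-B (0.00522), HLA-C (0.0019) and B2M (0.00268) lost their calls without replicate 1 of that dose, and B2M (0.00434) without replicate 2.

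Between 50 and 250 nM in KURAMOCHI, limma called 2 of 9 genes lower beside 36% of active genes. They were HLA-E (log2 fold change −0.77 ± 0.072, SE, adjusted p = 0.000243) and TAPBP (−0.73 ± 0.066, adjusted p = 0.000219), and all 9 fold changes were negative. With no minimum FPKM the same 2 were called, beside 1901 of all 23621 genes. Without either library of 50 nM (adjusted p in limma for HLA-E 0.00297 and 0.0024, for TAPBP 0.00244 and 0.00201, without replicates 1 and 2) or of 250 nM (HLA-E 0.00315 and 0.00343, TAPBP 0.00278 and 0.00196), 0 of the 9 were called in this step, and active genes called lower went from 5132 to 839 and 1603 without replicates 1 and 2 of 50 nM and to 791 and 1022 without those of 250 nM. In COV362 limma called 0 of 9 lower for the same step beside 24.4% of active genes, with 8 of the 9 and 9106 of the 14251 active genes lower at an unadjusted p under 0.05. Active genes called lower for this step in COV362 went from 3474 to 2193 and 2197 without replicates 1 and 2 of DMSO and to 1692 and 1518 without those of 250 nM. The median log2 fold change of the 9 genes was −0.49 in KURAMOCHI, beside −0.62 over active genes, and −0.27 in COV362, beside −0.41. After rescaling, 9 of the 9 genes in KURAMOCHI and 8 in COV362 had a positive fold change for this step. Groups that did not overlap gave larger counts: both treated libraries lay below both DMSO libraries for 5 of 9 genes in KURAMOCHI at 50 nM beside 75.8% of active genes, for 9 of 9 at 250 nM beside 95.9%, and for 9 of 9 in COV362 beside 95.7% at 50 nM and 95.6% at 250 nM.

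Most other class I heavy chains and class I-like genes lay above the median of active genes, 12 of 13 in KURAMOCHI and 11 of 13 in COV362 at 250 nM. The list counts here and below stand beside the 11.3% and 68.6% of active genes called lower in KURAMOCHI at 50 and 250 nM and the 70.5% and 84% in COV362. After rescaling they stand beside 2708 lower and 1577 higher of 14251 active genes at 250 nM in KURAMOCHI and 2694 lower and 1221 higher in COV362, and at an unadjusted p under 0.05 in KURAMOCHI at 50 nM, on the spike-in scale, beside 8692 lower. Of 13 active genes of this list, 1 was called lower at 50 nM and 5 at 250 nM in KURAMOCHI, and 6 and 10 in COV362, with 0 called higher by limma (1 higher at an unadjusted p under 0.05 in KURAMOCHI at 50 nM and 0 in the others). The pseudogene HLA-H and the stress ligand MICA fell at 250 nM in both lines, by 0.51 and 0.85 in KURAMOCHI and by 0.79 and 1.16 in COV362 on the log2 scale. HLA-H belongs to a family of near-identical copies, so its level is uncertain. The list medians at 250 nM were −0.50 in KURAMOCHI and −0.79 in COV362, and after rescaling 12 and 11 of the 13 genes had a positive fold change, with 0 called lower and 3 higher in KURAMOCHI and 2 called lower and 2 higher in COV362. The single call in KURAMOCHI at 50 nM was lost without any 1 of the 6 libraries. At 250 nM 1 gene was called there without replicate 1 of DMSO or either 250 nM library and 3 without either 50 nM library, and in COV362 4 were called without replicate 2 of DMSO and 6 without replicate 1 of 250 nM; at 50 nM in COV362 3 were called without either DMSO library.

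Peptide loading and trimming genes beyond the 9 stood closer to the median of active genes. Of 13 active ones, 0 were called lower at 50 nM and 10 at 250 nM in KURAMOCHI, and 12 at each dose in COV362, in limma, with 8 lower at an unadjusted p under 0.05 in KURAMOCHI at 50 nM and list medians of −0.78 and −1.19 at 250 nM. The lectin chaperones CALR and CANX, which fold new heavy chains, fell at 250 nM to 60.9% and 59.95% of DMSO in KURAMOCHI and to 43.6% and 42.5% in COV362. HSPA5, the main chaperone of the endoplasmic reticulum, fell to 45.2% and 19.4%. ERAP2, the partner of ERAP1, was between 0.4 and 1.2 FPKM in its group means and was called lower at 250 nM in KURAMOCHI only (log2 fold change −0.62, beside −0.50 in COV362, a difference that was not tested). It passed the minimum FPKM through DMSO libraries alone, so its call is no independent support for a fall. After rescaling, 11 and 9 of the 13 genes had a positive fold change at 250 nM, and the calls were 0 lower and 8 higher in KURAMOCHI, CALR (0.74) and CANX (0.72) among the latter, and 1 lower, HSPA5 (−0.74), and 3 higher in COV362. The count at 250 nM in KURAMOCHI was 5 without replicate 1 of DMSO and 3 without either 250 nM library, and at 50 nM in COV362 it was 6 and 2 without replicates 1 and 2 of DMSO and 7 without replicate 1 of 50 nM.

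The proteasome supplies the peptides, and its inducible catalytic subunits PSMB8, PSMB9 and PSMB10 replace PSMB5, PSMB6 and PSMB7 of the standard particle. Of 6 immunoproteasome genes, 0 and 4 were called lower in KURAMOCHI at 50 and 250 nM, and 4 and 6 in COV362, where both counts of 4 lie near the shares of active genes (68.6% and 70.5%). Of 8 standard proteasome genes the counts were 0 and 8, and 4 and 8. For the counts of 0 in limma, 3 of the 6 and 2 of the 8 were lower at an unadjusted p under 0.05, beside 8692 of the 14251 active genes. Without replicate 2 of DMSO in COV362 the 50 nM counts were 1 and 0. In KURAMOCHI at 250 nM they were 2 and 4 without replicate 1 of DMSO, 1 and 4 without replicate 1 of 250 nM, and 1 and 5 without replicate 2 of 250 nM. At 250 nM PSMB8 fell to 45.3% of DMSO in KURAMOCHI and 44.9% in COV362, PSMB9 to 41.0% and 42.7%, and PSMB10 to 45.2% and 46.8%. PSME2 and PSME1, which form the PA28 activator, were at 72.8% and 81.5% in KURAMOCHI, where neither was called, and fell to 53.8% and 55.5% in COV362. POMP, a chaperone of proteasome assembly, fell to 59.5% and 49.4%. Among the standard subunits PSMA7, PSMB7 and PSMB6 fell to 58.5%, 64.2% and 58.3% in KURAMOCHI and to 59.9%, 49.98% and 55.4% in COV362. All 6 immunoproteasome and all 8 standard genes had a positive fold change at 250 nM in both lines after rescaling, with 3 and 3 called higher in KURAMOCHI and 3 and 2 in COV362. PSMB9, which neighbors and overlaps TAP1, went from a ratio to PSMB6 of 0.0375 and 0.0378 in DMSO to 0.0203 and 0.0228 at 50 nM and 0.0249 and 0.0282 at 250 nM in KURAMOCHI. In COV362 that ratio was 0.218 and 0.214, then 0.152 and 0.170, then 0.182 and 0.154. Both doses lay below DMSO in each line. PSMB10 divided by PSMB7 was 0.177 and 0.186 in DMSO, 0.13 and 0.144 at 50 nM, and 0.119 and 0.137 at 250 nM in KURAMOCHI, again lower at both doses, while in COV362 one DMSO library, at 0.126, was level with a 250 nM library. PSMB8 divided by PSMB5 moved little: it was 0.0981 and 0.0957 in DMSO, 0.089 and 0.112 at 50 nM, and 0.0925 and 0.0929 at 250 nM in KURAMOCHI. In COV362 it was 0.664 and 0.665, then 0.667 and 0.694, then 0.653 and 0.623, so the 250 nM values were slightly below DMSO in each line and the 50 nM values slightly above it in COV362. The ratios were not tested.

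**Figure D3:**
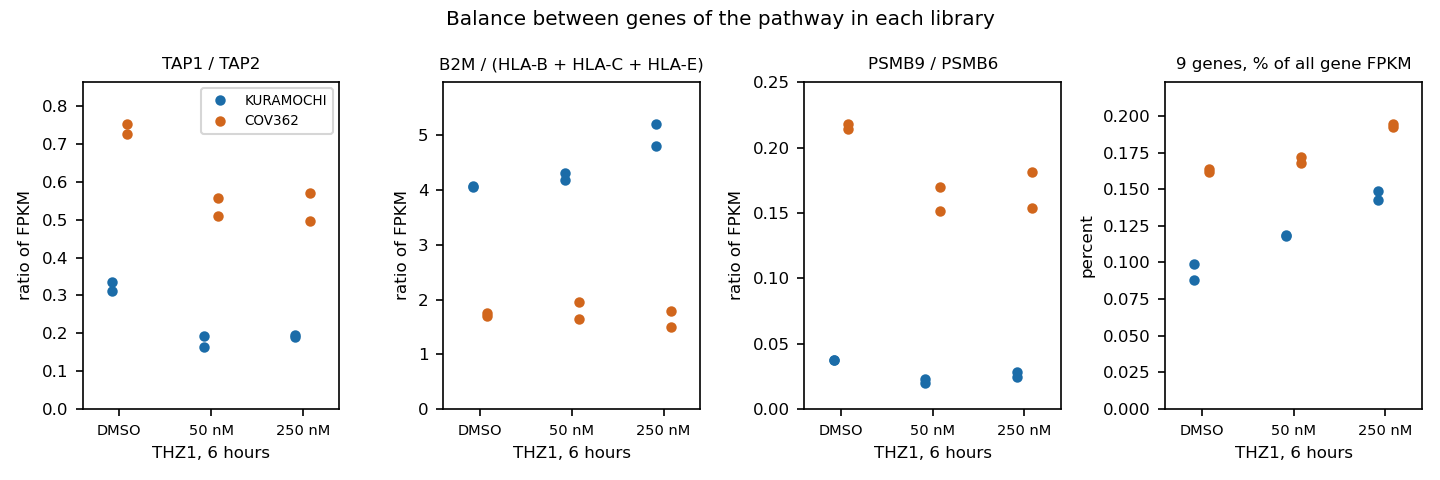
Ratios of FPKM between genes of the pathway and the share of the 9 genes in all gene FPKM (y axes, from 0) by THZ1 dose (x axis), with 1 point per library for KURAMOCHI (blue) and COV362 (orange). TAP1 over TAP2 and PSMB9 over PSMB6 lie below DMSO in every treated library. The share of the 9 genes, most of which is B2M, lies above DMSO in every treated library. Rescaling by 1 factor per library leaves the ratios unchanged, but the spike-in normalization may have acted differently on genes of different levels.

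On the spike-in scale the transcription regulators of class I genes had lower medians than the class I genes and active genes, and after rescaling 6 of 23 in KURAMOCHI and 4 in COV362 turned positive at 250 nM. Of 23 active regulators, 4 were called lower at 50 nM and 19 at 250 nM in KURAMOCHI, and 21 and 22 in COV362, with 0 called higher by limma and 0 higher at an unadjusted p under 0.05. The 50 nM count in KURAMOCHI was 1 without replicate 2 of DMSO and 0 without any 1 of the other 5 libraries, and that in COV362 was 11 without replicate 2 of DMSO. Their median log2 fold change was −0.56 and −1.51 in KURAMOCHI and −1.07 and −2.06 in COV362, beyond that of active genes in each case, and at 250 nM 5 of the 23 in KURAMOCHI and 3 in COV362 lay above the median of active genes. IRF1, an interferon-induced factor that binds the interferon response element, was at 37.8% of DMSO at 50 nM and 6.16% at 250 nM in KURAMOCHI, where the lower dose was not called, and it fell to 29.4% and 10.97% in COV362. Its log2 fold change at 250 nM was −3.18 in KURAMOCHI and −2.48 in COV362, and it remained called lower after rescaling (−2.09 and −1.23). RELA and NFKB1, subunits of NF-kB, fell to 18.96% and 45.6% in KURAMOCHI and to 19.1% each in COV362 at 250 nM. RFX5, which anchors NLRC5 at class I promoters, fell to 38.2% at 50 nM in both lines and to 35.5% and 36.1% at 250 nM, so that most of its drop was present at the lower dose. The methyltransferase EZH2 fell at 250 nM to 33.5% in KURAMOCHI and 22.7% in COV362. JAK1 was at 69.8% in KURAMOCHI, not called, and fell to 34.5% in COV362. After rescaling, 9 of the 23 in KURAMOCHI and 10 in COV362 were called lower at 250 nM and 1 and 0 called higher, the 1 being JAK1 in KURAMOCHI (0.93). JAK1 and RFX5 in COV362 and NFKB1 in KURAMOCHI were among the others with a positive fold change. In COV362 limma put 2 of the 23 higher at an unadjusted p under 0.05. They were RFX5 (0.14) and RFXANK (0.50), and JAK1 (0.08) was not among them. RELA and RFXANK were named after their values were seen.

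**Figure D4:**
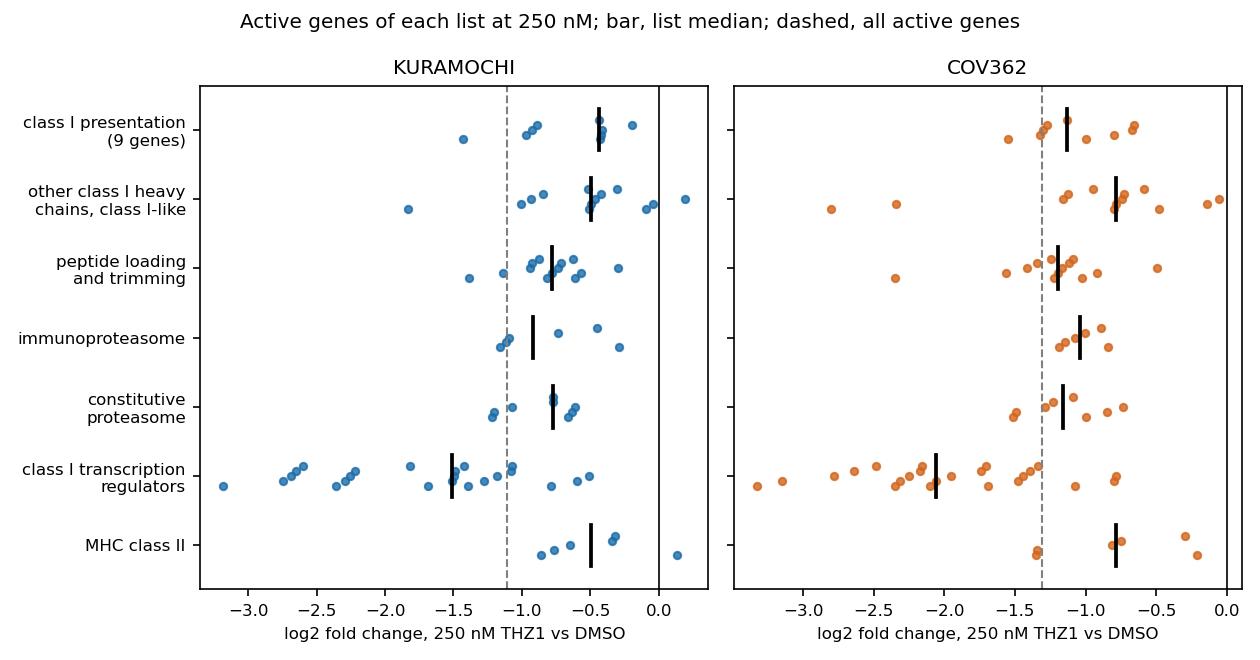
Log2 fold change at 250 nM THZ1 against DMSO (x axis) of every active gene of each list (y axis) in both lines, with a black bar at the list median and a dashed line at the median of all active genes, on the spike-in scale. The 9 class I genes have a median of −0.44 in KURAMOCHI and −1.13 in COV362 and the regulators −1.51 and −2.06; after median-of-ratios rescaling most genes of the lists other than the regulators lie above 0.

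Of 14 MHC class II genes, 9 did not exceed 1 FPKM in any library of KURAMOCHI and 9 in any of COV362. The most abundant in DMSO was HLA-DMB in KURAMOCHI, at 6.96 FPKM beside 7.42 FPKM in COV362, and CD74 in COV362. CIITA, the class II transactivator and a relative of NLRC5, had a DMSO mean of 0.162 FPKM in KURAMOCHI and 0.253 FPKM in COV362 and was not active. CD74, the invariant chain, had 1.92 FPKM in KURAMOCHI and 92.4 FPKM in COV362, while HLA-DRA had 0.24 and 1.17 FPKM. Of 6 active class II genes, 0 and 1 were called lower in KURAMOCHI at 50 and 250 nM, and 3 and 4 in COV362, where CD74 fell to 56.8% and 56.5%, CTSS to 51.3% and 37.3% and HLA-DMB to 38.1% and 30.9%. The 1 call in KURAMOCHI was HLA-DOB, named after its values were seen; it passed the minimum FPKM through the DMSO libraries of that line alone, so the call is no independent support for a fall. It was lost without replicate 1 of DMSO or without any 1 of the treated libraries, and the 50 nM calls in COV362 without replicate 2 of DMSO. For the count of 0 in limma, 2 of the 6 were lower at an unadjusted p under 0.05. After rescaling 6 of 6 in KURAMOCHI and 5 of 6 in COV362 had a positive fold change at 250 nM, with 1 called higher in each, CTSS (0.76) in KURAMOCHI and CD74 (0.78) in COV362, and 0 called lower by limma, as at an unadjusted p under 0.05 (0 in each).

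Of the 10 epithelial and serous markers, 2 and 6 were called lower in KURAMOCHI at 50 and 250 nM, and 7 and 10 in COV362, with KRT8 and KRT18 falling at 250 nM in both lines (log2 fold changes −0.69 and −1.43 in KURAMOCHI, −0.69 and −0.96 in COV362). KRT7 fell in COV362 (−1.18) and had −0.27 in KURAMOCHI, not called. PAX8, WT1 and KRT19 are described after their values were seen. PAX8 fell at 250 nM to 9.29% of DMSO in KURAMOCHI (log2 fold change −3.33) and 13.6% in COV362 (−2.81), and remained called lower after rescaling (−1.93 and −1.24). In KURAMOCHI WT1 fell to 4.31% (−4.07, rescaled −2.81) and KRT19 to 14.2% (−2.65, rescaled −1.28), both also called lower after rescaling. In COV362 WT1, below 1 FPKM, had −0.51 and KRT19 −1.50 at 250 nM, both called, and −0.10 and 0.11 after rescaling, neither called. After rescaling 7 and 8 of the 10 had a positive fold change at 250 nM, with 3 called lower and 1 higher in KURAMOCHI and 1 lower and 3 higher in COV362. The 2 calls in KURAMOCHI at 50 nM were lost without any 1 of the 6 libraries, and in COV362 at 50 nM 2 were called without replicate 2 of DMSO and 4 without replicate 1 of 50 nM. Of the leukocyte markers, CD68 and CD14 were active, and limma called 0 of these 2 lower at either dose in KURAMOCHI (0 at an unadjusted p under 0.05), 0 at 50 nM in COV362 (2 at an unadjusted p under 0.05) and CD68 at 250 nM (log2 fold change −0.98), a call lost without replicate 2 of DMSO or of 250 nM. The part of these markers in the changes of the class I genes was not tested.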

How the data were processed

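RNA-seq libraries (stranded polyA, single-end 75-base reads, per the labels) came from 12 samples. The authors used HISAT against hg19, then Cufflinks tools including Cuffnorm, and deposited FPKM normalized to ERCC spike-ins, in 1 table per line; versions, the annotation and the strand setting are not given in the sources used here. FPKM are not counts, so no count test was run. Each line was fitted separately, because its table was normalized separately, with limma 3.58.1 in R 4.3.3 (lmFit, eBayes with trend, two-sided) on log2(FPKM + 1) over 14251 active genes, without the 92 ERCC entries, with Benjamini-Hochberg adjustment. The fit was tested on simulated data in which only a small part of the genes changed. That test does not cover a shift shared by most genes, as seen here. The 9 genes and 8 lists, and the rule for named genes (all 9; the 3 most abundant active genes of each list in DMSO and 10 fixed regulators and relatives; the 3 nearest genes to B2M and NLRC5), were chosen with earlier results of these data known; other genes were named after their values were seen. Some genes that the rule names are not reported here. Alternatives were other pseudocounts, minimums, thresholds and scaling, a replicate block, no trend, and leaving out each library. Tables were read with data.table (version 1.17.8); sequences and figures were handled in Python 3.11.15 with matplotlib 3.10.9. Positions come from GENCODE on GRCh37 and promoters from RefSeq on GRCh38.p14.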

Additional observations from a re-analysis of the deposited data

Results flagged for a closer look

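Among 90 listed active genes looked at in both lines at both doses (180 pairs), 3 had fold changes of opposite sign on the spike-in scale, with both treated libraries above DMSO in KURAMOCHI and both below in COV362. HLA-F at 50 nM had a log2 fold change of 0.26 in KURAMOCHI, where all its group means were below 1 FPKM, and −0.79 in COV362, a difference of 1.05. ULBP2, a ligand of NKG2D, had 0.32 and −0.69 at 50 nM, a difference of 1.01. HLA-DRA at 250 nM had 0.13 and −0.29, a difference of 0.42, at levels of 1.2 FPKM or less in the group means. After median-of-ratios rescaling all 3 pairs were positive in both lines, at 0.38 in KURAMOCHI and 0.17 in COV362 for HLA-F, 0.77 and 0.15 for ULBP2, and 0.48 and 0.47 for HLA-DRA. The differences between the lines were not tested, since the tables were normalized separately, and limma called none of these 3 pairs in KURAMOCHI and only HLA-F in COV362.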

How the results depend on the processing

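The 54 log2 fold changes of the 9 genes (6 comparisons) kept their direction under every alternative other than median-of-ratios scaling and leaving out a library. Calls were unchanged for 51 with a pseudocount of 0.1, 52 with no minimum FPKM, 47 of 48 with a minimum of 10, 52 with the replicate block, 54 without the trend and 49 at an adjusted p under 0.05. Leaving out 1 library left 293 of 324 unchanged. A group left with 1 library was assumed to vary like the others. Depth is unknown.

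Median-of-ratios scaling turned 42 of the 54 values positive; the cause is in its construction, which removes the shift shared by most genes. In KURAMOCHI at 50 nM these were HLA-E 0.3817, TAP2 0.2718 and TAPBP 0.3076. At 250 nM they were HLA-B 1.0305, HLA-C 0.9956, HLA-E 0.4688, B2M 1.2627, TAP2 0.5107, TAPBP 0.4625, NLRC5 0.1016 and ERAP1 0.7792. Between doses they were HLA-B 0.4223, HLA-C 0.3689, HLA-E 0.0872, B2M 0.6092, TAP1 0.2979, TAP2 0.2389, TAPBP 0.1549, NLRC5 0.1656 and ERAP1 0.267. In COV362 at 50 nM they were HLA-B 0.6265, HLA-C 0.6213, HLA-E 0.3269, B2M 0.6489, TAP2 0.1231, TAPBP 0.1802 and ERAP1 0.2853. At 250 nM they were HLA-B 0.9524, HLA-C 0.9378, HLA-E 0.3124, B2M 0.8146, TAP2 0.4258, TAPBP 0.2814 and ERAP1 0.4229. Between doses they were HLA-B 0.3259, HLA-C 0.3165, B2M 0.1657, TAP1 0.2924, TAP2 0.3028, TAPBP 0.1012, NLRC5 0.0608 and ERAP1 0.1376. Active genes called lower were 388, 2708 and 1580 in KURAMOCHI (50 nM, 250 nM, between doses) and 110, 2694 and 1129 in COV362, and 0 of the 9 genes in each comparison.

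With no minimum FPKM, genes called lower, of all 23621, were 3 in KURAMOCHI at 50 nM, 1901 between doses there and 2127 between doses in COV362. At an adjusted p under 0.05 the active genes called lower were 5734, 8295 and 5909, with 1, 4 and 1 of the 9 genes. A pseudocount of 0.1 called 1 of the 9 between doses in COV362, HLA-E. Between doses in KURAMOCHI it added HLA-C to the calls (adjusted p = 0.00094 in limma), as did a minimum of 10 (adjusted p = 0.000978). The cause was not tested.

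Replicate numbers did not pair the libraries: the correlations of deviations ran from −0.07 to 0.028. With the replicate block, active genes called lower were 989 in KURAMOCHI at 50 nM and 1130 between doses in COV362, where 7 of 9 genes were called at 250 nM, without HLA-B (adjusted p = 0.0011) and B2M (adjusted p = 0.00133) in limma; it ended no other call of the 9.

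Leaving out 1 library gave ranges of 6 to 131 active genes called lower in KURAMOCHI at 50 nM, 6085 to 9044 at 250 nM and 791 to 4599 between doses, and of 4314 to 9929 in COV362 at 50 nM and 1518 to 3974 between doses. Of the 9 genes, 2 to 4 were called at 250 nM and 0 to 3 between doses in KURAMOCHI, and 3 to 6 at 50 nM and 5 to 9 at 250 nM in COV362. In KURAMOCHI at 50 nM the log2 fold change ranged from −0.045 to 0.1554 for HLA-B, from −0.0002 to 0.1627 for HLA-C and from −0.0951 to 0.2077 for ERAP1, negative without replicate 2 of DMSO, and for ERAP1 also without replicate 1 of 50 nM (−0.0356). The cause was not tested. Of 192 counts over the 8 lists, 52 fell by over 1.5 times. Of 32 list counts under each other alternative, those that fell that far were 24 with median-of-ratios scaling, 7 with no minimum FPKM, 5 with a minimum of 10, 5 with the replicate block, 2 without the trend and 1 with a pseudocount of 0.1. Those that rose that far were 9 at an adjusted p under 0.05 and 1 each with the minimum of 10 and the replicate block.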
